A study of Homo sapiens with 12 samples.

Results

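The response of A375 cells to the CDC7 inhibitor XL413 alone was measured in 6 of the 12 libraries of the study, the 3 labelled as treated with XL413 at 1 µM and the 3 labelled as treated with the vehicle DMSO, each for 24 h. The libraries were chosen by their labels, and all genes were compared, of which 15353 of 26475 table entries had enough counts to be tested. A375 is a human melanoma line with an activating BRAF mutation, so the data describe 1 line at 1 dose and 1 time. The other libraries received OF1, an inhibitor of the chromatin reader proteins BRPF1, BRPF2 and BRPF3, at 1 µM for the same time, either alone or with XL413, with 3 libraries in each group. RNA was selected for poly(A) tails. The series' text describes 3 biological replicates for each treatment without saying that each was a culture of its own, and the p-values therefore measure how far these libraries spread, which may be technical.

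CDC7 is a serine/threonine kinase that is active only when bound to its regulatory partner DBF4 or to the related DBF4B. It phosphorylates subunits of the MCM helicase, which has been loaded on chromatin during G1, and so allows origins of replication to fire in S phase. XL413 competes with ATP in the kinase's active site. Many genes of mitosis are transcribed in late S and G2 phase from promoters with a cell cycle homology region and CCAAT boxes, bound by the DREAM and MYB complexes and by NF-Y.

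Total counts in the 6 libraries ran from 31553205 to 35777606, and the common biological coefficient of variation over all 12 libraries was 0.049. Of the melanocytic markers, SOX10 averaged 345 CPM (counts scaled to a common library size) in DMSO and 352 CPM in XL413 and MITF 43.5 and 37.9 CPM, whereas MLANA and PMEL stayed under 1 CPM and TYR had no count in these 6 libraries. Skeletal muscle transcripts were present in all of them. Summed over 35 muscle fibre genes, their level was 411 to 629 CPM in DMSO and 506 to 721 CPM in XL413, so the groups overlapped. None of the 33 tested muscle fibre genes passed the test, although all 33 had a log2 change above 0 (median 0.47). Their mean log2 CPM was 0.86, 1.51 and 2.42 in DMSO replicates 1, 2 and 3 and 2.73, 2.21 and 1.38 in XL413 replicates 1, 2 and 3. The lowest values of all were -0.45 and 0.20, in replicates 2 and 3 of OF1 with XL413. Of the leukocyte list 1 of 7 tested genes, LAPTM5, rose, against 1.26% of all genes tested, and 6 of the 7 had a log2 change above 0 (median 0.31). PTPRC, CD3E and TYROBP had 4, 1 and 0 counts in the 6 libraries together, whereas CD14 had 70 and LYZ 1203. The 12 genes of this list summed to 959 to 986 CPM in DMSO and 966 to 1024 CPM in XL413. Where the muscle level bears on a result below, its part in that result was not tested beyond the values given.

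XL413 changed many genes by small amounts. At a Benjamini-Hochberg adjusted p under 0.05 in edgeR's quasi-likelihood test, 193 genes rose (1.26% of those tested) and 237 fell (1.54%). The median absolute log2 change of these 430 genes was 0.22, a 1.17-fold change. Only 15 rose and 3 fell by more than 1.5-fold, and 4 rose and 2 fell by more than 2-fold. Those 6 (C5orf58, HIST1H2BJ, NSG1 and TRIM34 up, GAGE8 and TDRP down, named after their values were seen) all had an average log2 CPM below 1. For all 430 the 3 libraries of one group lay on one side of the 3 libraries of the other. Such an order was also found upward for 13.0% and downward for 14.8% of all genes tested. Separate groups described below for a gene that passed therefore add no support to its call. When each of the 6 libraries was left out in turn, 67 genes (34 risen, 33 fallen) passed in every one of the 6 fits, and the number that passed was 128, 92 and 120 without DMSO replicate 1, 2 and 3 and 287, 86 and 104 without XL413 replicate 1, 2 and 3. With the muscle level as a covariate 189 genes passed. Other settings raised the number, to 1394 in a fit of the 6 libraries alone, 848 without replicates 2 and 3 of OF1 with XL413, 874 without that group and 1187 with offsets for transcript length and GC content. The fit of the 6 libraries called 680 of 14995 tested genes as risen and 714 as fallen. The fit with offsets called 535 and 652 of 15353. On GRCh38.p14 (RefSeq), the genes followed most closely below lie at chr6:52264015-52284742 (MCM3), chr10:60778331-60794852 (CDK1), chr5:163460632-163491941 (HMMR), chr10:128096659-128126423 (MKI67), chr6:26124172-26124690 (HIST1H2AC), chr17:34255285-34257203 (CCL2), chr16:87830023-87869507 (SLC7A5) and chr19:41219223-41261766 (AXL).

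**Figure D1:**
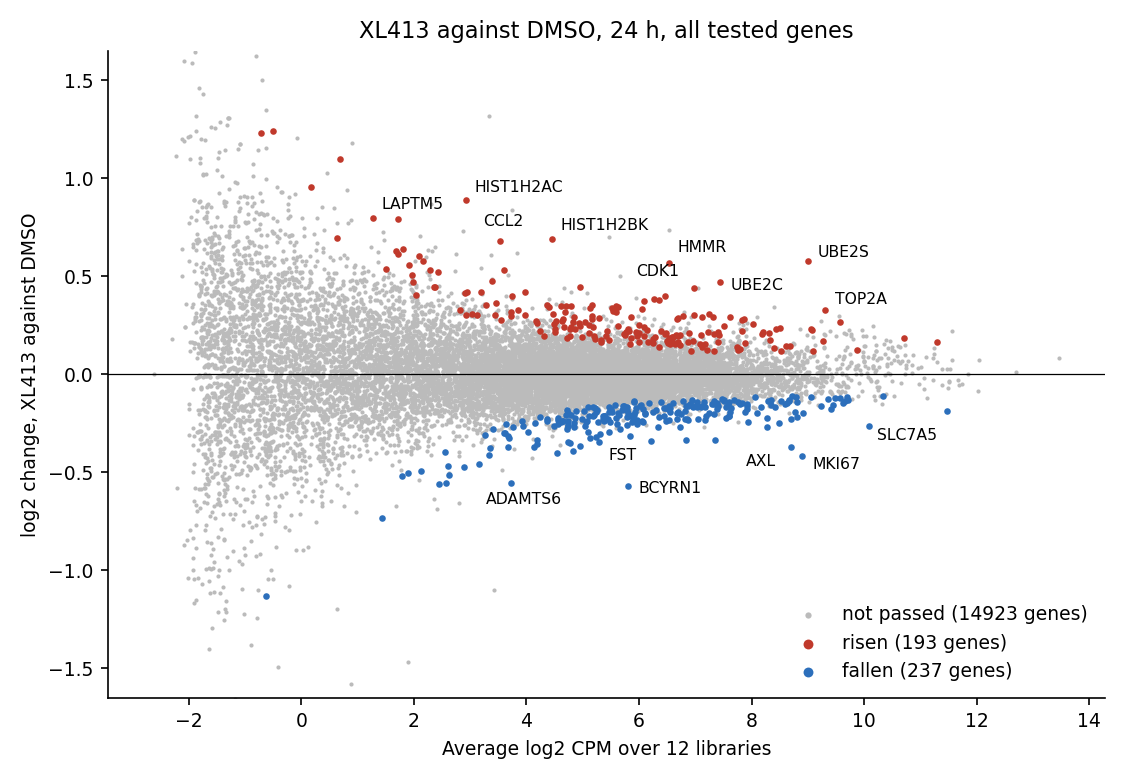
Change of every tested gene with XL413 (vertical axis, log2 change against DMSO) by its average level over the 12 libraries (horizontal axis, log2 CPM), each point being 1 gene. Red points are the 193 genes that rose and blue points the 237 that fell, and most of them lie within 0.5 of no change on the log2 scale. The range of the vertical axis leaves 19 genes outside.

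The transcripts of the inhibited kinase itself did not pass the test. CDC7 stood at 24.4, 22.7 and 22.6 CPM in DMSO and at 22.4, 24.5 and 22.7 CPM in XL413, and the groups overlapped. DBF4, its activating partner, averaged 48.3 and 51.7 CPM (log2 change 0.10 ± 0.04 SE, adjusted p = 0.215). Among the subunits of the substrate helicase 1 of 6 rose, against 1.26% of all genes tested. That subunit, MCM3, was at 181, 179 and 176 CPM in DMSO and at 215, 220 and 220 CPM in XL413. All 3 treated libraries lay above all 3 controls, a log2 change of 0.29 ± 0.03 (edgeR adjusted p = 0.000485), and MCM3 passed in all 6 fits that left out a library. MCM4, at 428, 435 and 432 CPM in DMSO and 474, 463 and 464 CPM in XL413, missed the threshold narrowly (log2 change 0.11 ± 0.03, edgeR adjusted p = 0.0501). MCM7 had a log2 change of 0.09 ± 0.03, MCM5 of 0.09 ± 0.05, MCM2 of 0.04 ± 0.03 and MCM6 of 0.00 ± 0.03, and none of these 4 passed in the fit over all 12 libraries. In the edgeR fit of the 6 libraries alone MCM4 and MCM7 passed as well (adjusted p = 0.012 and 0.0251). Both also passed with the length and GC offsets (edgeR adjusted p = 0.00598 and 0.0052), and MCM4 passed in DESeq2 (adjusted p = 0.00851).

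Genes of origin licensing and of the replication fork gave no call in the fit over all 12 libraries. None of 21 licensing and firing genes passed, with a median log2 change of 0.03, against 0.00 over all genes tested. ORC1, the subunit of the origin recognition complex that binds late in the cycle, averaged 61.9 CPM in DMSO and 65.7 CPM in XL413, and CDC45, a part of the active helicase, averaged 46.5 and 48.9 CPM. None of 28 replisome genes passed either (median log2 change 0.04), among them the sliding clamp PCNA at 294 and 316 CPM. In the fit of the 6 libraries alone 2 licensing genes rose, and 6 replisome genes rose and 1 fell, and with the length and GC offsets 2 genes of each list rose. Over all genes, 680 of 14995 rose and 714 fell in the fit of the 6 libraries, and 535 of 15353 rose with the offsets. Of 15 genes of the replication checkpoint 2 rose, against 1.26% of all genes tested. CHEK2, a checkpoint kinase, averaged 13.6 CPM in DMSO and 16.7 CPM in XL413 with no overlap between the groups (log2 change 0.30 ± 0.07, edgeR adjusted p = 0.0291). ATRIP, the partner of the kinase ATR, had a log2 change of 0.23 ± 0.05 (edgeR adjusted p = 0.0319). CHEK2 passed in 1 and ATRIP in 0 of the 6 fits that left out a library, with adjusted p up to 0.144 for CHEK2 and 0.121 for ATRIP. The kinases ATR, CHEK1 and WEE1 did not pass, at log2 changes of 0.00, 0.08 and 0.00.

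At the border of G1 and S phase only single genes passed, beside 1.26% risen and 1.54% fallen over all genes tested. The median log2 changes of the G1/S and nucleotide synthesis lists were both 0.00. Of 22 G1/S genes RBL1, a pocket protein of the retinoblastoma family, rose (log2 change 0.20 ± 0.04) and CCND1, the D-type cyclin that MAPK signalling induces, fell. CCND1 was at 615, 624 and 620 CPM in DMSO and at 558, 549 and 555 CPM in XL413, so the groups were separate (log2 change -0.16 ± 0.03, edgeR adjusted p = 0.00951). In nucleotide synthesis 1 of 15 genes rose and 1 fell. DUT, which removes dUTP, had a log2 change of 0.29 ± 0.07, and RRM2, the small subunit of ribonucleotide reductase, of -0.11 ± 0.03. CCND1 lost its call without DMSO replicate 2 and without XL413 replicate 2, with adjusted p up to 0.0632, and RBL1, DUT and RRM2 passed in 0 of the 6 fits.

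A part of the mitotic programme rose. Over 4 lists of mitotic genes (kinases and cyclins, the anaphase-promoting complex, kinetochore, and spindle with cytokinesis) 23 tested genes rose in the fit over all 12 libraries. Of the 78 others CCNF alone fell in that fit, which called 1.26% of all genes tested as risen and 1.54% as fallen. In the fit of the 6 libraries alone these lists had 8, 4, 8 and 10 risen and 1, 0, 4 and 2 fallen members. That fit called 680 of 14995 tested genes as risen and 714 as fallen. With the length and GC offsets the lists had 7, 5, 8 and 12 risen and 1, 0, 5 and 0 fallen members. CDK1, the kinase that drives entry into mitosis, was at 103, 104 and 105 CPM in DMSO and at 135, 143 and 145 CPM in XL413. The treated libraries lay above the controls with a gap far wider than the spread within either group, a 1.36-fold rise (log2 change 0.44 ± 0.03, edgeR adjusted p = 3.61e-05). HMMR, a microtubule-binding protein of the spindle, went from 72.9, 75.1 and 74.7 CPM to 109, 109 and 113 CPM, the largest rise of the spindle list at 1.48-fold (log2 change 0.57 ± 0.05, edgeR adjusted p = 4.07e-05). UBE2C, the ubiquitin-conjugating enzyme that works with the anaphase-promoting complex, stood at 145, 139 and 139 CPM in DMSO and at 190, 208 and 188 CPM in XL413 (log2 change 0.47 ± 0.05). TOP2A, the topoisomerase that untangles sister chromatids, was at 546, 544 and 556 CPM and then 698, 663 and 705 CPM (log2 change 0.33 ± 0.04). In both genes the groups were separate. In these bulk libraries a larger share of cells in a phase of the cycle and more transcript per cell cannot be told apart.

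The rise was uneven within each mitotic list. Among kinases, cyclins and their regulators 7 of 21 rose, among them AURKA, a kinase of the spindle poles (log2 change 0.22 ± 0.03), and the B-type cyclin CCNB2 (0.29 ± 0.04). PLK1, AURKB, CCNA2 and the transcription factors FOXM1 and MYBL2 did not pass, at log2 changes between -0.05 and 0.01. Of 16 genes of the anaphase-promoting complex and mitotic exit 3 rose, UBE2C, UBE2S and the securin PTTG1 (0.31 ± 0.05), and none of the listed subunits of the complex itself did. Of 34 kinetochore genes 5 rose, with CENPH at 0.29 ± 0.05 and BIRC5 (survivin) at 0.21 ± 0.03. Of 30 spindle genes 8 rose, with the kinesin KIF4A at 0.30 ± 0.03 and the midzone protein PRC1 at 0.21 ± 0.03. The median log2 changes of the 4 lists were 0.06, 0.06, 0.08 and 0.06, against 0.00 over all genes tested. Log2 changes above 0 were found in 12 of 21, 10 of 16, 22 of 34 and 16 of 30 members, against 50% of all genes. Fits without 1 library gave 3 to 5, 1 to 3, 2 to 6 and 4 to 6 risen members in these lists. CDK1, AURKA, CCNB2, UBE2C, CENPH, BIRC5, HMMR, KIF4A, TOP2A and PRC1 passed in all 6 of those fits, PTTG1 passed in 3 (adjusted p up to 0.0685), and no other risen member of these lists passed in all 6.

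UBE2S, which extends ubiquitin chains for the anaphase-promoting complex, had the largest change of these genes but the widest spread. It was at 394, 421 and 503 CPM in DMSO and at 676, 724 and 569 CPM in XL413 (log2 change 0.58 ± 0.12, edgeR adjusted p = 0.0238). The lowest treated library exceeded the highest control by less than the range within either group. UBE2S passed in 2 of the 6 fits without 1 library, and its adjusted p was 0.121 without XL413 replicate 2.

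MKI67 moved against these genes. This gene encodes Ki-67, the coat protein of mitotic chromosomes that is widely used as a proliferation marker. It was at 525, 550 and 551 CPM in DMSO and at 423, 394 and 400 CPM in XL413, and every treated library lay below every control (log2 change -0.42 ± 0.05, edgeR adjusted p = 0.000361). The call was kept in all 6 fits that left out a library, with log2 changes from -0.46 to -0.40. In the same list of condensin, cohesin and chromosome proteins NCAPD2, a condensin subunit, rose (0.14 ± 0.03) and the 15 other tested members did not pass. NCAPD2 passed in 0 of the fits without 1 library, with adjusted p up to 0.13. CCNF, a cyclin-like subunit of a ubiquitin ligase, fell by 0.19 ± 0.05 on the log2 scale and did not pass in all 6 fits.

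**Figure D2:**
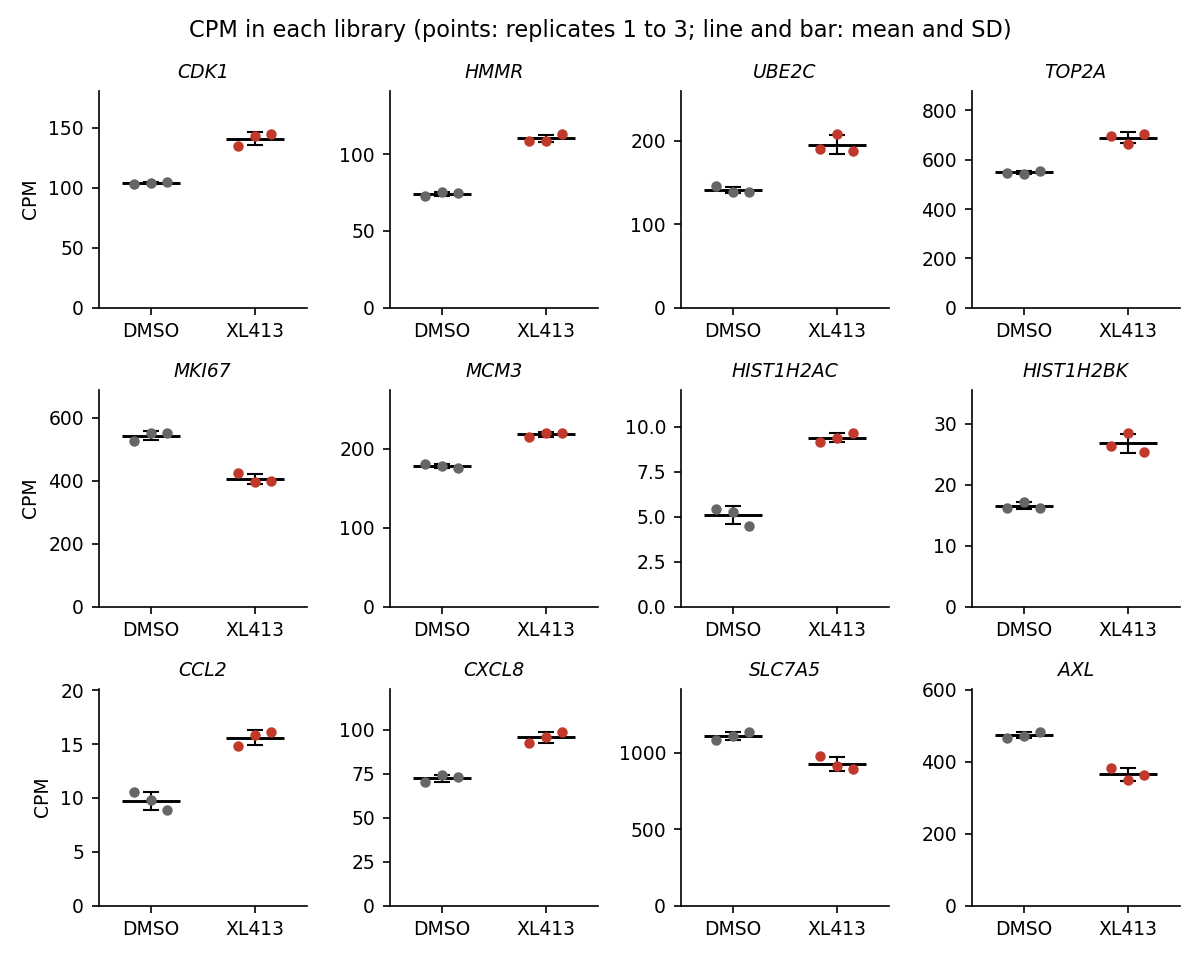
Level of 12 genes in each library (vertical axes, CPM from 0), with 3 DMSO libraries in grey and 3 XL413 libraries in red, and a line and bar for the mean and SD. In all 12 panels the groups are separate, as they were for all 430 genes that passed. MKI67, SLC7A5 and AXL are lower with XL413 and the other 9 genes are higher.

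The promoters of the mitotic genes were read from RefSeq on GRCh38.p14, in windows from 250 bases before to 50 bases after each start site. The letters TTTGAA (core of the cell cycle homology region) and CCAAT, on either strand, were searched because of their known place in mitotic promoters. TTTGAA was found in 13 of 19 risen mitotic genes with a promoter entry (68.4%), in 38 of 68 other tested mitotic genes (55.9%) and in 10.1% of the 11918 promoters of all tested genes. CCAAT was found in 84.2%, 69.1% and 36.9% of the same sets, and both motifs in 57.9%, 39.7% and 4.26%. Over all 193 risen genes, 28 of 151 promoters held TTTGAA (18.5%), against 8.95% of 190 among fallen genes. Of those 28, 13 are the promoters of the risen mitotic genes counted above, so this share is not a separate result. Matches are a description of letters and not of binding, and the matches in risen mitotic genes were not tested against those in the other mitotic genes. Stretches that end at the base before the start site are shown for 5 risen genes, to let the spacing of the motifs be compared. They lie at chr5:163460532-163460631 for HMMR, chr15:59105016-59105145 for CCNB2, chrX:70290029-70290103 for KIF4A and chr10:60778161-60778330 for CDK1, all on the plus strand, and at chr15:90994536-90994610 on the minus strand for PRC1. Capitals mark TTTGAA and CCAAT or its reverse complement ATTGG, which overlap in the CCAATTGG of HMMR.
HMMR: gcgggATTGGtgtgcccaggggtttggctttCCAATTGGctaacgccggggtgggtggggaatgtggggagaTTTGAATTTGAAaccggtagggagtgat
CCNB2: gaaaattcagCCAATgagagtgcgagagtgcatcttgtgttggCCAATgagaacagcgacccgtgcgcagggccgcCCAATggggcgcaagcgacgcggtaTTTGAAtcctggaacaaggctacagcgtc
KIF4A: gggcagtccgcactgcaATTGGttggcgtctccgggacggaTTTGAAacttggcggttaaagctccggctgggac
PRC1: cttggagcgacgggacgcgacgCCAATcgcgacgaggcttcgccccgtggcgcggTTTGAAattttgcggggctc
CDK1: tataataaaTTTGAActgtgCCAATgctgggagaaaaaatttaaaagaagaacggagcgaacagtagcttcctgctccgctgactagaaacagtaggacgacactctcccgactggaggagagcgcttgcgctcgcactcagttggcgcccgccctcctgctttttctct
In HMMR, CCNB2, KIF4A and PRC1 the TTTGAA nearest the start site begins 20 to 34 bases before it, and a CCAAT or ATTGG lies further upstream. In CDK1 the order is the other way, with TTTGAA at -161 and CCAAT at -150. These 5 genes were not chosen by a rule, and the spacing was not particular to risen genes. On either strand, the motif of the risen TOP2A begins at -194 and -151. In PLK1 and CDCA8, which did not pass, TTTGAA begins at -29 and -23.

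Among genes that averaged 1 or more in log2 CPM, the largest rise was that of a histone gene. Of 18 tested genes of the histone clusters 5 rose and none fell, against 1.26% and 1.54% of all genes tested, and the median log2 change was 0.22. HIST1H2AC, an H2A gene of the major cluster on chromosome 6, was at 5.46, 5.25 and 4.51 CPM in DMSO and at 9.14, 9.39 and 9.66 CPM in XL413, with no overlap (log2 change 0.89 ± 0.11, edgeR adjusted p = 0.000559). HIST1H2BK, an H2B gene of that cluster, went from 16.2, 17.2 and 16.3 CPM to 26.4, 28.5 and 25.4 CPM, a 1.62-fold rise (log2 change 0.69 ± 0.07). HIST3H2A, an H2A gene on chromosome 1, was at 8.69, 11.3 and 9.86 CPM and then at 14.5, 14.5 and 14.2 CPM (log2 change 0.53 ± 0.08). These 3 genes passed in all 6 fits that left out a library. HIST1H2BD, from 2.24 ± 0.35 to 3.88 ± 0.091 CPM (SD, n = 3 each), passed in 2 of them and had an adjusted p of 0.0782 without XL413 replicate 2, and HIST1H2BJ rose from 0.456 to 1.08 CPM on average. Most transcripts of such genes end without a poly(A) tail, and the libraries hold only RNA selected for one, so the values describe polyadenylated histone transcripts. Members of a histone family are also close in sequence, and the division of shared reads between them was left to the authors' count estimation. Of 10 histone genes that are transcribed outside S phase as well, none rose and H1F0, a linker histone of slowly dividing cells, fell from 374, 366 and 376 CPM to 315, 310 and 315 CPM (log2 change -0.25 ± 0.03, edgeR adjusted p = 0.00196).

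Some chemokine genes and some genes of the NF-kB pathway rose. NF-kB is a family of transcription factors held inactive by inhibitor proteins, many of whose targets attract leukocytes or feed back on the pathway. Of 18 chemokine and cytokine genes 5 rose and none fell (median log2 change 0.22). Of 18 NF-kB subunits, inhibitors and targets 5 rose and none fell (median 0.08, with 12 of the 18 above 0). The shares over all genes tested were 1.26% risen and 1.54% fallen. CCL2, which attracts monocytes, was at 10.6, 9.80 and 8.85 CPM in DMSO and at 14.8, 15.8 and 16.1 CPM in XL413, a 1.60-fold rise with no overlap (log2 change 0.68 ± 0.08, edgeR adjusted p = 0.000361). CXCL8, which attracts neutrophils, was at 70.1, 74.0 and 73.3 CPM and then at 92.3, 95.8 and 98.7 CPM (log2 change 0.40 ± 0.05). CXCL1, a ligand of the same receptor, went from 67.5, 66.7 and 65.6 CPM to 84.3, 88.7 and 87.8 CPM (log2 change 0.38 ± 0.04). Both were separate between the groups in every library. Of the cytokines LIF and IL1A rose (0.19 ± 0.04 and 0.41 ± 0.10), whereas IL6, CXCL10 and IL1B, all under 4 CPM on average in either group, did not pass.

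In the NF-kB list the risen genes were the adhesion molecule ICAM1, the subunit NFKB2 and 3 genes of the inhibitor family by name, whose action was not measured. ICAM1 was at 61.9, 59.8 and 57.2 CPM in DMSO and 75.1, 76.0 and 74.0 CPM in XL413 (log2 change 0.33 ± 0.04). NFKB2 had a log2 change of 0.20 ± 0.03, and NFKBIA, NFKBIZ and NFKBIE of that family had log2 changes of 0.27 ± 0.05, 0.31 ± 0.06 and 0.37 ± 0.09. The subunits RELA and NFKB1 did not pass, at -0.07 and -0.08. CCL2, CXCL1, CXCL8 and ICAM1 passed in all 6 fits that left out a library, NFKB2 in 5 (adjusted p = 0.0625 without DMSO replicate 2), NFKBIA in 2 (up to 0.071), NFKBIZ in 1 (up to 0.115) and LIF in 0 (up to 0.133). Fits without 1 library gave 3 to 4 risen chemokines and cytokines and 1 to 4 risen NF-kB genes.

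The letters GGAATTTCC, a site for NF-kB, were found on either strand in 11 of the 30 promoters of these chemokine, cytokine and NF-kB genes (36.7%) and in 0.445% of the promoters of all tested genes. The lists hold known NF-kB targets, so this share describes the lists and not the response. The stretches upstream of CXCL1 (chr4:73869303-73869392) and CXCL8 (chr4:73740469-73740568), both on the plus strand, are shown as the 2 risen chemokines with the site in the same orientation, marked in capitals.
CXCL1: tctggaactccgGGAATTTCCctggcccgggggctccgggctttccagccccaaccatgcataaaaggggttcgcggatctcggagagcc
CXCL8: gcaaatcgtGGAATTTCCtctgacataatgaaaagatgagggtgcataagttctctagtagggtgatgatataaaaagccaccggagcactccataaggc
The site begins 78 bases before the start site of CXCL1 and 91 bases before that of CXCL8. In CXCL2, CXCL3 and CXCL5, which did not pass, the same letters begin at -77, -78 and -90.

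A minority of the amino acid supply genes of the ATF4 pathway fell, each by a small amount. ATF4 is the transcription factor of the integrated stress response and induces amino acid transporters and synthesis enzymes. Of 22 such genes 5 fell and none rose, against 1.54% and 1.26% of all genes tested. In this list 21 of 22 genes had a log2 change below 0, and the median was -0.12. In the fit of the 6 libraries alone 12 of them fell, as did 12 with the length and GC offsets. Over all genes, 714 of 14995 fell in the former fit and 652 of 15353 in the latter. SLC7A5, a transporter of large neutral amino acids, was at 1087, 1113 and 1138 CPM in DMSO and at 979, 913 and 892 CPM in XL413. The groups were separate, with a log2 change of -0.26 ± 0.04 (edgeR adjusted p = 0.00191), and SLC7A5 passed in all 6 fits that left out a library. Its heavy chain SLC3A2 (-0.19 ± 0.04), the serine pathway enzyme PSAT1 (-0.14 ± 0.03), the asparagine synthetase ASNS (-0.16 ± 0.03) and the mitochondrial SHMT2 (-0.15 ± 0.03), which splits serine to glycine, also fell. PSAT1 passed in 3, ASNS in 4 and SHMT2 in 1 of those fits, with adjusted p up to 0.0816, 0.064 and 0.0923, and the list had 1 to 5 fallen members in them. ATF4 itself was at 344 and 312 CPM on average (log2 change -0.14 ± 0.04) and did not pass in the fit over all 12 libraries. Of 16 regulators and effectors of the pathway, ATF4 included, CEBPG alone passed in that fit, and the list median was -0.12. The fall of CEBPG, 0.18 ± 0.04 on the log2 scale, was lost in all 6 fits that left out a library. The stress genes DDIT3, ATF3 and TRIB3 did not pass in the fit over all 12 libraries. In the fit of the 6 libraries alone 6 genes of this list fell and 1 rose, and with the length and GC offsets 6 fell and 1 rose. Among 20 tRNA synthetases VARS and MARS fell (-0.18 ± 0.03 and -0.14 ± 0.03), passing in 2 and 1 of the 6 fits that left out a library. Of these synthetases 3 fell and 1 rose in the fit of the 6 libraries alone, and 5 fell and 1 rose with the offsets.

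Ribosome biogenesis and heat shock genes showed a few falls of like size. Of 25 genes of MYC and ribosome biogenesis 4 fell and none rose (median log2 change -0.08), against 1.54% fallen over all genes tested. The fallen genes included MYC itself (-0.26 ± 0.06), the nucleolar protein NCL (-0.11 ± 0.03) and POLR1A, the large subunit of RNA polymerase I (-0.18 ± 0.04). MYC passed in 2, NCL in 0 and POLR1A in 1 of the 6 fits that left out a library. HSPA1A and HSPA1B, near-identical genes for the inducible HSP70, both had a log2 change of -0.23 ± 0.05 and passed in 1 and 2 of those fits, and reads of the pair cannot be told apart with certainty. The cytosolic ribosomal proteins themselves gave no call, although 40 of 40 had a log2 change above 0 (median 0.10), and 27 of 30 genes of oxidative phosphorylation were above 0 (median 0.11) with no call. Those counts are from the fit over 12 libraries. In the fit of the 6 libraries alone 14 ribosomal protein genes and 10 genes of oxidative phosphorylation rose, and 11 genes of ribosome biogenesis fell. Over all 14995 genes tested there, 680 rose and 714 fell.

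**Figure D3:**
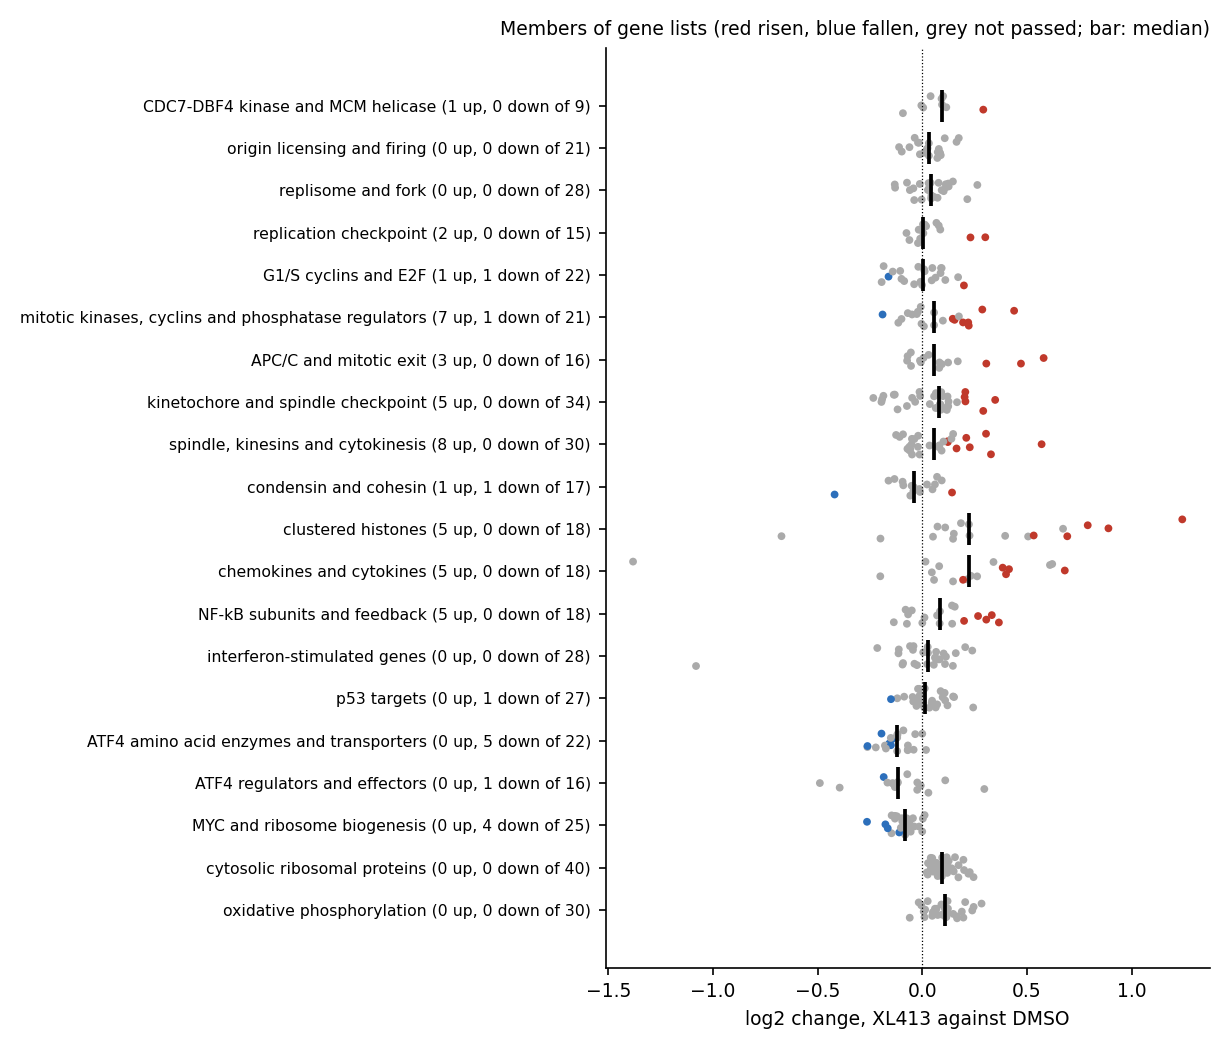
Change of each tested member of 20 gene lists with XL413 (horizontal axis, log2 change against DMSO), with 1 row per list, red points for members that rose, blue for those that fell, grey for those that did not pass and a black bar for the median. The medians of clustered histones and of chemokines and cytokines, both 0.22, stand furthest above 0, and those of both ATF4 lists, at -0.12, furthest below it.

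Other genes that passed encode receptors, secreted factors and a noncoding RNA. AXL, a receptor kinase that marks a dedifferentiated state of melanoma cells, was at 466, 471 and 483 CPM in DMSO and at 384, 348 and 364 CPM in XL413 (log2 change -0.37 ± 0.04, edgeR adjusted p = 0.000482). Every treated library lay below every control. FST, the activin antagonist follistatin, fell from 86.8, 86.8 and 85.1 CPM to 70.0, 67.4 and 66.8 CPM (log2 change -0.34 ± 0.04). SNAPC1, a subunit of the complex that starts small nuclear RNA transcription, fell by 0.33 ± 0.03, ESM1, a proteoglycan of endothelial cells, by 0.32 ± 0.03, and SECISBP2, which allows selenocysteine insertion, by 0.35 ± 0.04 on the log2 scale. BCYRN1, a short noncoding RNA, went from 77.4, 63.8 and 64.7 CPM to 41.8, 48.1 and 48.5 CPM (log2 change -0.57 ± 0.08), and the metalloprotease ADAMTS6 had a log2 change of -0.55 ± 0.08. The glycolytic hexokinase HK2 (-0.23 ± 0.03) and the Wnt antagonist DKK1 (-0.22 ± 0.04) fell as well. Among matrix proteases MMP1 (0.40 ± 0.07) and MMP2 (0.25 ± 0.03) rose. These genes were 2 of 22 tested members of the AXL-high state (AXL and DKK1), 1 of 28 hypoxia and glycolysis genes (HK2) and, with TGFBI, 3 of 31 matrix genes. Beside these counts stand 1.26% risen and 1.54% fallen over all genes tested. The genes named here passed in all 6 fits that left out a library, except MMP1 and TGFBI. MMP1 had an adjusted p of 0.0545 without DMSO replicate 2. TGFBI (log2 change 0.28 ± 0.05) passed in 3, with adjusted p up to 0.0623.

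Several genes of large fold lost their calls when a library was left out. Their changes kept their direction in all 6 fits, which the separate groups demanded by the naming rule made near certain in advance. LAPTM5, a lysosomal protein best known from blood cells, was at 1.56, 1.41 and 2.18 CPM in DMSO and at 2.99, 3.45 and 2.55 CPM in XL413 (log2 change 0.80 ± 0.18, edgeR adjusted p = 0.0288), and its adjusted p was 0.136 without XL413 replicate 2. Its log2 change ran from 0.67 to 1.00 over the 6 fits. GPRC5B, TENM1, MIR99AHG, DDO and ITGA9 had log2 changes of 0.58 to 0.64 and passed in 0 or 1 of the 6 fits. In those fits the log2 change was 0.55 to 0.73 for GPRC5B and 0.46 to 0.65 for TENM1, the pair that passed in none of them. The fallen genes FAM196B, FDXACB1, MMAA, SLITRK4, ADM5, BEND3 and RSC1A1, at -0.73 to -0.41, likewise passed in 0 or 1.

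Several pathways that are often examined after replication stress gave little, beside 1.26% risen and 1.54% fallen over all genes tested. Of 27 p53 targets PLK2 alone passed, with a log2 change of -0.15 ± 0.03, and it passed in 0 of the 6 fits that left out a library. CDKN1A, the p21 inhibitor, averaged 174 CPM in DMSO and 180 CPM in XL413, and GADD45A 76.2 and 75.2 CPM. None of 28 interferon-stimulated genes (median log2 change 0.03) and none of 21 apoptosis regulators (median 0.02) passed. B2M, the light chain of MHC class I, was the single call among 15 genes of antigen presentation, at 506, 481 and 464 CPM in DMSO and 525, 584 and 592 CPM in XL413 (log2 change 0.23 ± 0.05), and its adjusted p was 0.13 without XL413 replicate 2. None of the 13 tested melanocyte differentiation genes, of 20 genes of the unfolded protein response and of 17 antioxidant genes passed. The fit of the 6 libraries alone called 2 p53 targets as risen and 1 as fallen, and 1 gene each as risen among the interferon-stimulated and unfolded protein genes and as fallen among the melanocyte and antioxidant genes. Over all 14995 genes tested there, 680 rose and 714 fell.

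The same inhibitor was also given on top of OF1, in 6 libraries whose values enter neither mean of the comparison with DMSO. They share its fit, and with it the estimate of spread behind its calls. In OF1 with XL413 against OF1, 429 genes rose (2.79% of those tested) and 416 fell (2.71%). Of the 193 genes that rose with XL413 alone 164 (85.0%) had a log2 change above 0 there, against 49.6% of all genes, and 90 also passed as risen. Of the 237 that fell 223 (94.1%) were below 0 and 56 passed as fallen. None of the 430 passed in the opposite direction, although 2 risen genes did without replicate 1 of OF1 with XL413 and 1 did with the length and GC offsets described below. The shared genes were 46.6% of the risen and 23.6% of the fallen calls with XL413 alone, and 21.0% and 13.5% of the calls on top of OF1. The median log2 change of the risen genes was 0.25 alone and 0.15 on top of OF1, and that of the fallen genes -0.21 and -0.11. Without replicates 2 and 3 of OF1 with XL413, the libraries of lowest muscle level, 168 risen and 229 fallen genes kept their sign and 28 and 8 passed. With the muscle level as a covariate 178 and 224 kept their sign and 13 and 2 passed.

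Members of the mitotic and histone lists had changes of several kinds on top of OF1. CDK1 had log2 changes of 0.44 alone and 0.47 on top of OF1, HMMR of 0.57 and 0.64, UBE2C of 0.47 and 0.62, TOP2A of 0.33 and 0.41, HIST1H2AC of 0.89 and 1.38 and MCM3 of 0.29 and 0.36. All of them passed in both comparisons, as did MKI67 at -0.42 and -0.33. MCM2, MCM4, MCM5 and MCM7 passed as risen on top of OF1 only, at log2 changes of 0.18, 0.16, 0.19 and 0.21 there. MCM6 (0.03) did not pass on top of OF1. The mitotic genes CENPA (0.35 and 0.05) and MASTL (0.22 and 0.09) did not pass on top of OF1, and the median of the clustered histones was 0.22 alone and 0.40 there. A second set had values near 0 on top of OF1, among them CXCL8 (0.40 and 0.05), NFKBIA (0.27 and 0.00), MMP2 (0.25 and -0.02), UBE2S (0.58 and -0.01), ASNS (-0.16 and 0.02) and PSAT1 (-0.14 and 0.06), and none of these passed there. Markers of other cell types also moved in that comparison, with 24 of 33 muscle fibre genes (median log2 change -2.10), 6 of 12 fibroblast genes (median -0.69) and 12 of 31 matrix genes (median -0.17) fallen and none risen, and their part in the values of MMP2 and the other genes was not tested. The difference between the 2 comparisons was tested directly and did not pass, with edgeR adjusted p of 0.0896 for CXCL8, 0.16 for NFKBIA, 0.0924 for MMP2, 0.203 for UBE2S, 0.118 for ASNS and 0.0896 for PSAT1. Over all genes this test of the difference called 0 genes in edgeR (1566 at an unadjusted p under 0.05) and 108 in DESeq2.

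**Figure D4:**
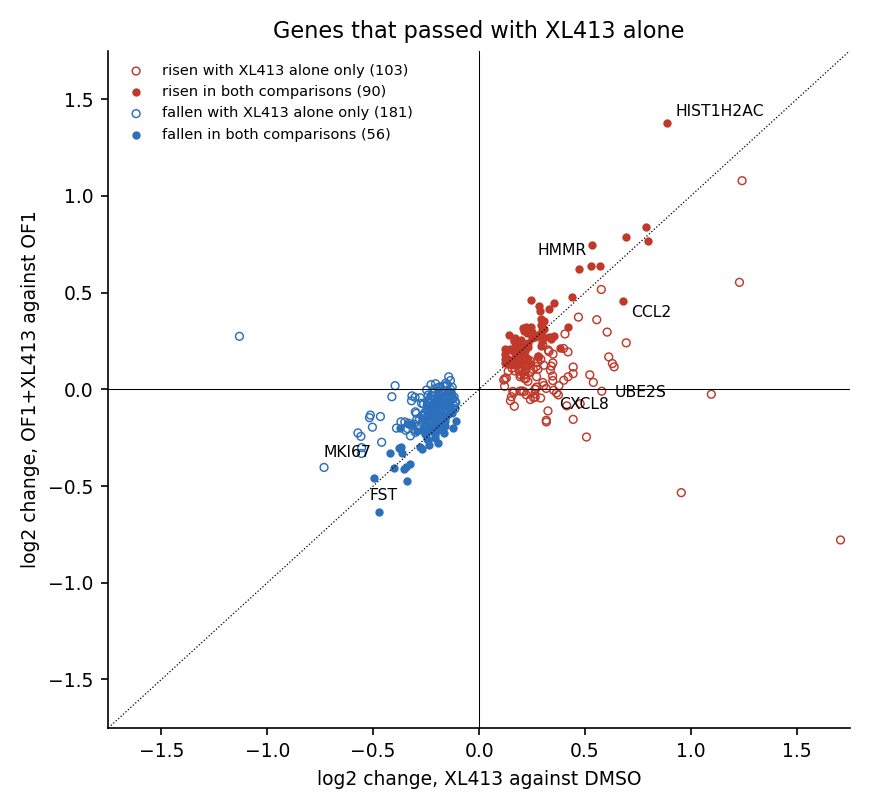
The 430 genes that passed with XL413 alone, by their log2 change against DMSO (horizontal axis) and their log2 change in OF1 with XL413 against OF1 (vertical axis), red where risen and blue where fallen, with filled points for the genes that passed in both. Of the risen genes 164 lie above 0 and of the fallen genes 223 lie below 0 on the vertical axis. The range of the axes leaves 1 gene outside.

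The size of a change was related to transcript length. Tested genes with a transcript of known length were split into 5 classes by their longest transcript. In the shortest class, up to 2066 bases, the median log2 change with XL413 was 0.05, with 48 genes risen and 21 fallen. In the longest, from 5883 bases, it was -0.04, with 20 risen and 69 fallen. The median length was 3099 bases in risen, 4401 in fallen and 3582 in all genes, and the median GC content 47.5%, 53.6% and 48.4%. Single libraries differed in this slope. XL413 replicate 2 ran from 0.06 in the shortest to -0.05 in the longest class, DMSO replicates 2 and 3 ran the other way, and DMSO replicate 1 and XL413 replicate 1 were within 0.02 of 0 in every class. With length and GC content taken out of each library, 535 genes rose and 652 fell, and CDK1, HMMR, UBE2C, TOP2A, MKI67, HIST1H2AC, CCL2 and SLC7A5 kept their calls. In that fit the log2 change of MKI67, whose longest transcript has 12678 bases, was -0.38, and the medians of ribosomal protein and oxidative phosphorylation genes moved to 0.06 and 0.08 and that of clustered histones to 0.14.

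**Figure D5:**
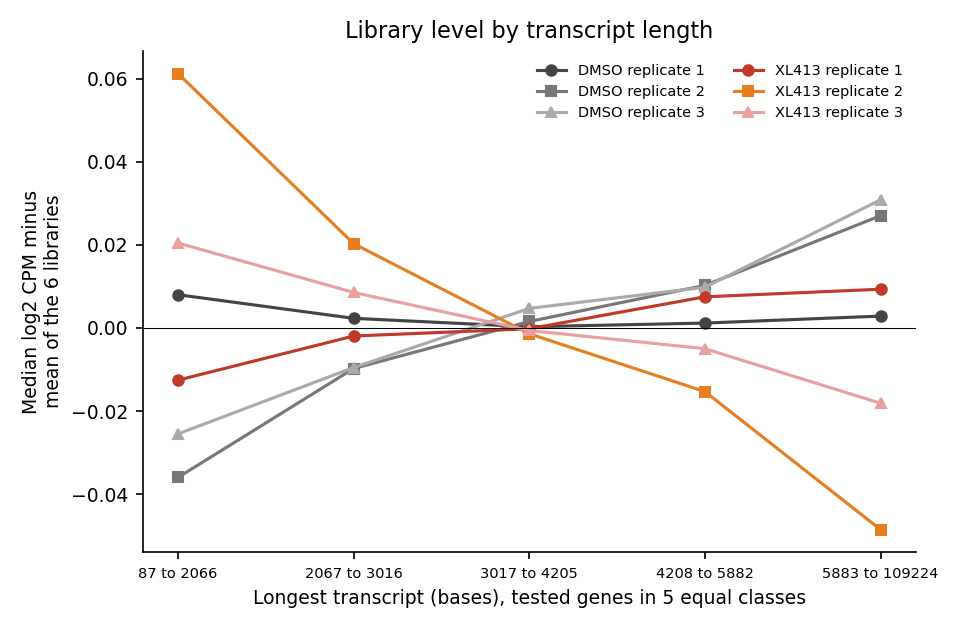
Median deviation of each library from the mean of the 6 libraries (vertical axis, log2 CPM) in 5 classes of transcript length (horizontal axis, bases), with 1 line per library. The orange line of XL413 replicate 2 falls from 0.06 to -0.05, whereas the lines of DMSO replicates 2 and 3 rise.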

How the data were processed

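RNA of 12 A375 libraries was sequenced, 3 for each of DMSO, XL413, OF1 and both inhibitors. The values deposited by the authors are expected counts, that is, RSEM-style estimates of the reads from each gene symbol, with no scaling across libraries. The submitters' processing notes list the tools Bowtie2 2.1.0 and RSEM 1.2.15 and the build hg38. Gene annotation and strand setting: not given in the sources used here. Values were rounded, since 10.6% had a fractional part.

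In edgeR 4.0.16 (R 4.3.3), genes passing filterByExpr were kept, TMM factors applied and 1 mean per group fitted over the 12 libraries together (8 residual degrees of freedom). Contrasts went through edgeR's quasi-likelihood F test, Benjamini-Hochberg adjusted over all 15353 genes, with 0.05 as the threshold. The SE was derived as |log2 change| over the root of F, and CPM used TMM library sizes. Chi-square values per degree of freedom between replicates of a group were 2.29 to 13.2, above counting noise, and each library was kept as 1 replicate. The fit was tested on simulated data.

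The comparison, the 43 gene lists and the rule for named genes were chosen with earlier results of these data known. The rule takes, among genes that passed, averaged 1 or more in log2 CPM and had separate groups, the 12 risen and 12 fallen of largest fold and the 6 and 6 of smallest p, up to 4 passing members of each list, and CDC7, DBF4 and MCM2 to MCM7. Other list members and genes were named after their values were seen. Some genes the rule takes are not described.

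Alternatives were DESeq2 1.42.0, limma-voom (limma 3.58.1), other scaling factors and filters, a replicate block, unrounded counts, a test against a 1.2-fold change, fewer libraries and a covariate that holds each library's mean level of muscle fibre genes. Offsets for transcript length and GC content (GENCODE 29, matched for 24565 of 26473 names) and a fit without the OF1 with XL413 group were added after the data were seen. Promoters were matched by symbol for 17309 names.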

Additional observations from a re-analysis of the deposited data

How the results depend on the processing

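Every gene taken by the naming rule that passed with XL413 kept its direction under all alternatives run. For the fits that left out a library this was near certain in advance, since the groups of these genes were separate. The number of genes that passed with XL413 against DMSO was 430. It was 628 in DESeq2, 433 and 451 with RLE and upper-quartile factors (241 risen and 210 fallen with the latter, against 193 and 237) and 447 in limma-voom. It moved to 1394 with the 6 libraries alone, 848 without replicates 2 and 3 of OF1 with XL413, 874 without that group, 1187 with length and GC offsets, 1764 with those offsets in the 6 libraries alone, 189 with the muscle level as a covariate and 5 when tested against a 1.2-fold change. Leaving out each library gave 86 to 287. Of 89 named genes 82 had a call, and of these 23 lost it with the muscle covariate and 13 in the 6 libraries with a replicate block. The cause was not tested.

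For OF1 with XL413 against OF1 the count was 845, and it moved to 120 with the 6 libraries of that comparison alone, 53 without replicates 2 and 3 of OF1 with XL413, 16 with the muscle covariate, 9 against a 1.2-fold change and 1672 with the offsets, with 212 to 2227 on leaving out a library. The 2227 came without replicate 1 of OF1 with XL413. The test of the difference called 0 genes, but 108 in DESeq2, 132 without a filter, 1 without replicates 2 and 3 of OF1 with XL413 and 110 with the offsets, with 0 to 362 on leaving out a library.

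With the replicate number as a block, 361 genes passed for XL413 against DMSO, 850 for OF1 with XL413 against OF1 and 2 for the difference, and 405 passed in the 6 libraries alone with the block. Deviations of DMSO and XL413 libraries of the same number correlated at -0.15, -0.12 and -0.16 across genes. Over all groups, pairs of the same number ran from -0.16 to 0.20 and pairs of different numbers from -0.20 to 0.18. Deviations from a mean of 3 libraries are not independent, and the muscle level varied within groups. These correlations therefore cannot tell whether the numbers pair the samples.

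Expected counts hide the uncertainty of reads shared between similar genes, and changes of low genes were measured with wide errors, as in HIST1H2BJ.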

Other observations

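Some genes outside the lists passed in all 6 fits that left out a library and were named after their values were seen. ACTB, the cytoskeletal actin often used to scale expression, was at 3182, 3165 and 3124 CPM in DMSO and at 2816, 2747 and 2750 CPM in XL413 (log2 change -0.19 ± 0.03). NEAT1, the noncoding RNA that scaffolds paraspeckles, went from 212, 209 and 203 CPM to 181, 182 and 183 CPM (-0.19 ± 0.03). RTEL1, a helicase that protects telomeres and forks, had a log2 change of -0.40 ± 0.06 and FAM111B, a protease-like gene, of -0.32 ± 0.05. KPNA2, a nuclear import receptor, rose by 0.23 ± 0.03, the complement gene C3 by 0.35 ± 0.04, ERRFI1, a feedback inhibitor of the EGF receptor, by 0.28 ± 0.04 and IFNGR2, a chain of the interferon-gamma receptor, by 0.34 ± 0.05 on the log2 scale. On top of OF1, KPNA2 (0.29), RTEL1 (-0.41), FAM111B (-0.39), NEAT1 (-0.28) and ERRFI1 (0.17) passed again, and C3 (0.07), IFNGR2 (0.10) and ACTB (-0.10) did not. For none of these genes did the test of the difference pass.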
